A study of Mus musculus with 12 samples.

Results

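The nuclear-encoded subunits of mitochondrial complexes II to V were examined in whole retinas of normoglycaemic mice and of mice with diabetes induced by streptozotocin, which destroys pancreatic beta cells. Members were the genes of the deposited table found by a rule on the platform symbol or updated symbol. The symbol had to begin with Uqcr or Atp5, or to read as Sdha to Sdhd, Cyc1 or Cycs. Cox4 to Cox8 counted if followed only by digits or the letters a, b, c or i. Cox7a2l did not match this rule and was listed with the assembly factors of complex IV. This rule took 43 of the 24570 named genes: 4 of complex II, 8 of complex III, the somatic cytochrome c gene Cycs, 16 of complex IV and 14 of complex V. Of these, 42 are protein-coding and 1, Atp5c1-ps, is a pseudogene. A further 3 genes (Atpif1, Dmac2 and Dmac2l) carry such a name only among their synonyms and were kept beside the members. None of the 6 mitochondrially encoded subunits of complexes III, IV and V (mt-Cytb, mt-Co1, mt-Co2, mt-Co3, mt-Atp6 and mt-Atp8) was analysed here.

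Both groups were male C57Bl6/J mice (called outbred in the labels), with 6 animals per group and 1 array per animal. Diabetic animals had received 160 mg/kg streptozotocin into the peritoneum at 8 weeks of age, at a body weight of 24 to 26 g. They had a blood glucose above 15 mM after 7 days, whereas controls received none. Retinas were taken at 6 weeks. The series text gives 6 weeks as the age of the diabetic animals, younger than at the injection, so age and duration of diabetes are not settled here. The numbers that identify the animals in the labels did not overlap in range between the groups, and a cohort or batch behind them cannot be told apart from diabetes.

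Complex II, succinate dehydrogenase, passes electrons from succinate to ubiquinone and is also an enzyme of the citric acid cycle. Complex III moves them on to cytochrome c, complex IV (cytochrome c oxidase) hands them to oxygen, and complex V (ATP synthase) makes ATP from the proton gradient. Photoreceptors, whose inner segments are packed with mitochondria, are among the most energy-demanding cells of the body, and several complex IV subunits exist as isoforms that differ between tissues.

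The values were log2 RMA values (robust multi-array average, a background-corrected and quantile-normalized summary of a gene's probes), with the same distribution on every array (median 5.73, lowest 5.07, highest 14.10). Correlations between arrays ran from 0.993 to 0.998. All 10 rod markers lay above the array median, and their mean was 12.46 to 12.55 in controls and 12.41 to 12.53 in diabetic retinas. Red blood cell markers (4 of 5 measured) all lay below the array median. Lens markers varied most, with list means from 6.25 to 7.15 in controls and from 6.08 to 8.33 in diabetic retinas, the highest in diabetic 6, and all 8 had changes above 0 (median 0.36). Cone markers had means from 9.66 to 9.81 in controls and from 9.53 to 9.68 in diabetic retinas, with 7 of 8 changes below 0, and the cone arrestin gene Arr3 fell by 0.30 ± 0.07 (adjusted p = 0.0348 by limma). Pigment epithelium markers also varied, with list means from 6.49 to 7.26 in controls and from 6.48 to 7.80 in diabetic retinas. The part of lens, pigment epithelium and cone RNA in the results was not tested beyond the lens covariate named below. In a whole tissue, fewer cells of a type and less RNA per cell cannot be told apart. Values of different genes were not set against each other, because probes differ in brightness.

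Few of the 43 genes parted the groups, and each by a small amount. Sdha, the catalytic flavoprotein of complex II, rose, and Cox6b1 and Cox8a, 2 small nuclear-encoded subunits of complex IV, fell in diabetic retinas. By limma with Benjamini-Hochberg adjustment over all 24570 genes, 1 member was higher and 2 were lower at an adjusted p under 0.05, where 1.47% of all genes were higher and 1.77% lower. This is 6.98% of the members against 3.24% of all genes, and 3 genes against the 1.39 that the background share would give among 43. The background itself moved with single arrays: without control 1, 2, 3 or 6, or diabetic 1, 3, 4 or 6, from 325 to 464 genes passed in place of 797, and 2 or 3 members did. At an unadjusted p under 0.05 there were 3 higher and 11 lower members (32.6% of the 43), against 21.0% of all genes. Such shares were larger among brighter genes. Of the 32 members above the array median, 43.8% had an unadjusted p under 0.05, against 27.7% of all genes above it. For an adjusted p under 0.05 these shares were 9.38% and 5.14%. The groups did not overlap for 1 member in the higher and 2 in the lower direction, against 1.22% and 1.62% of all genes (2.84% in all), and these are again Sdha, Cox6b1 and Cox8a.

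**Figure D1:**
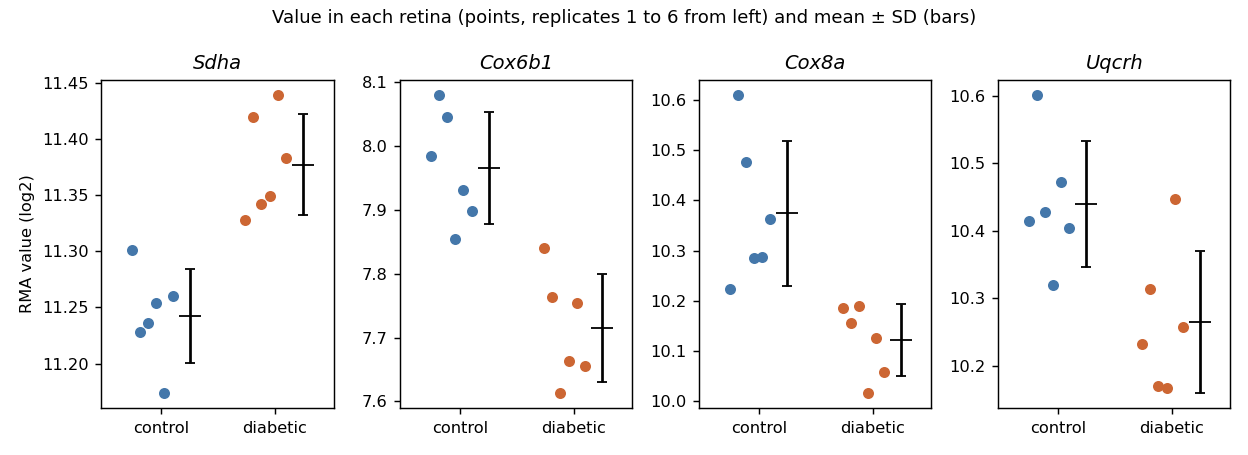
RMA value (log2) of Sdha, Cox6b1, Cox8a and Uqcrh in the 6 control (blue) and 6 diabetic (orange) retinas, with mean and SD beside the points; each panel has its own axis, which does not start at 0. All diabetic points lie above the controls for Sdha (from 11.33 against at most 11.30) and below them for Cox6b1 and Cox8a, whereas for Uqcrh the groups overlap.

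The promoters of these 3 genes are shown because they are the members whose expression passed the test. Each is the stretch of 250 bases before the annotated start in RefSeq (GRCm38.p6), 5′ to 3′ on the gene's strand. That of Sdha lies at chr13:74350241-74350490, that of Cox6b1 at chr7:30626115-30626364 and that of Cox8a at chr19:7217617-7217866, all on the minus strand. Capitals mark matches to 4 motifs searched on both strands, whose letters were chosen after results and sequences had been seen. These were GCGCA, any base, then GCGC (the core bound by nuclear respiratory factor 1, NRF1), CCGGAAG (ETS factors such as GABP), AAGATGG (YY1) and GGGCGG (SP1), and no matches overlapped in the 3 windows.
Sdha: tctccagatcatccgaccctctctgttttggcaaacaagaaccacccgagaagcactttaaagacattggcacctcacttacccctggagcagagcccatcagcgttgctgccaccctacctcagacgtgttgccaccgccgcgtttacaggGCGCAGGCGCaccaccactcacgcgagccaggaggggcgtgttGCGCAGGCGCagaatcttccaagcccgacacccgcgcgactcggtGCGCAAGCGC
Cox6b1: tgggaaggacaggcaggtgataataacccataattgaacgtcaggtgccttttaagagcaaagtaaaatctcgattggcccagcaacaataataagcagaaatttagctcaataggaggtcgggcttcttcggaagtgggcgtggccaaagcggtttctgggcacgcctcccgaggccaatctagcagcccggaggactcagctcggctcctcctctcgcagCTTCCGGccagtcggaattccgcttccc
Cox8a: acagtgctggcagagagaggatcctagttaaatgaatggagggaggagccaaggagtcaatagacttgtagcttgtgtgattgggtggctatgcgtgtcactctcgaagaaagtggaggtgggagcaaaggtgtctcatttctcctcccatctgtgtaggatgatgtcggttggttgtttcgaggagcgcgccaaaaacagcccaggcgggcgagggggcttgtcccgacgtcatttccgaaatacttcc

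The Sdha window held 3 copies of the NRF1-type motif, GCGCAGGCGC at 98 to 89 bases and again at 55 to 46 bases before the start, and GCGCAAGCGC in the last 10 bases before it. No other of the 31 members with a window held 3 or more, and of the 18335 tested genes with a window 0.109% did. Cox6b1 held 1 ETS-type match, on the strand opposite to the printed one at 28 to 22 bases before the start (printed as CTTCCGG), and the Cox8a window held none of the 4 motifs. Among the 31 members, 6 (19.4%) held the NRF1-type motif against 5.75% of tested genes, and 8 (25.8%) the ETS-type motif against 9.98%. The SP1-type motif was found in 11 (35.5%) against 45.8%, and the YY1-type in 1 (3.23%) against 4.93%. Because the motifs were chosen with results and sequences already seen, these shares only describe the windows. A match is only a run of letters and does not show that a factor binds there. Of the genes of such factors, Nrf1, Gabpa, Gabpb1 (0.03) and Yy1 (-0.05) were among the listed regulators, and none passed the test. Nrf1 differed by 0.0033 ± 0.05 (adjusted p = 0.983) and Gabpa by -0.12 ± 0.03 (adjusted p = 0.0796).

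In complex II, Sdha stood alone among the 4 subunits in passing the test. Its values ran from 11.17 to 11.30 in controls (median 11.25) and from 11.33 to 11.44 in diabetic retinas (median 11.37). The lowest diabetic retina, diabetic 1, was thus above the highest control, control 1. The rise was 0.13 ± 0.02 on the log2 scale (SE, n = 6 per group), or 1.10-fold, with a 95% interval from 0.08 to 0.19 and an adjusted p of 0.0199 by limma. It passed in each of the 12 runs that left out 1 array, with an adjusted p of at most 0.0428 and a change from 0.12 to 0.15. It did not pass with a block for the replicate number, at the same change (adjusted p = 0.0810).

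Sdhb, the iron-sulphur subunit that takes the electrons from Sdha, ran from 7.78 to 8.08 in controls (median 7.85) and from 7.82 to 8.08 in diabetic retinas (median 7.91). The groups covered nearly the same range, and the change was 0.04 ± 0.05 (95% interval -0.08 to 0.16, adjusted p = 0.726). The membrane anchors Sdhc (-0.06 ± 0.06, adjusted p = 0.641) and Sdhd (0.01 ± 0.06, adjusted p = 0.945) also overlapped between the groups. One control, replicate 5, was far above the others for Sdhc (8.71 against at most 8.40). The median change of the 4 genes was 0.03, against -0.0018 over all genes, and ran from 0.0078 (without control 1) to 0.051 (without control 3) when 1 array was left out. Whether the change of Sdha differs from those of the other subunits was not tested. All 4 assembly factors of complex II (Sdhaf1 to Sdhaf4) missed the test, with changes from -0.17 to 0.08. Of these, 1 was lower at an unadjusted p under 0.05, against 11.3% lower among all genes.

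None of the 8 subunits of complex III passed the test, and their changes ran from -0.18 to 0.08 (median -0.04, from -0.064 without control 5 to -0.019 without diabetic 6), 4 above and 4 below 0. At an unadjusted p under 0.05 there were 1 higher and 2 lower (9.76% and 11.3% of all genes). All 8 lay above the array median, and in both directions together this was 37.5% of them, against 27.7% of all genes above it. The smallest p was that of Uqcrh, the acidic hinge subunit at the contact with cytochrome c. It ran from 10.32 to 10.60 in controls (median 10.42) and from 10.17 to 10.45 in diabetic retinas (median 10.25). Of the diabetic retinas, 5 lay below the lowest control and 1, diabetic 5, lay above 4 of the controls. The change was -0.18 ± 0.05 (adjusted p = 0.0938), and without diabetic 5 it was -0.21 and passed (adjusted p = 0.0426).

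The core protein Uqcrc2 differed by 0.08 ± 0.03 (adjusted p = 0.134), and the small subunit Uqcr11 by -0.12 ± 0.04 (adjusted p = 0.111). Cyc1, the cytochrome c1 that delivers electrons to cytochrome c, ran from 7.15 to 7.40 in controls (median 7.26) and from 7.05 to 7.39 in diabetic retinas (median 7.15). Its groups overlapped over most of their range, with a change of -0.09 ± 0.06 (adjusted p = 0.430). Uqcrfs1, the Rieske iron-sulphur protein, ran from 5.95 to 6.08 in controls (median 6.00) and from 5.95 to 6.12 in diabetic retinas (median 6.04). Its change of 0.03 ± 0.03 (adjusted p = 0.656) was within the spread between animals. The other 3 subunits (Uqcrc1, Uqcr10 and Uqcrq) had changes from -0.13 to 0.0039, with adjusted p of 0.541 or more.

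Cycs, the mobile carrier between complexes III and IV and, once released, a trigger of apoptosis, ran from 5.49 to 5.61 in controls (median 5.56) and from 5.53 to 5.60 in diabetic retinas (median 5.58). The change was 0.02 ± 0.02 (adjusted p = 0.683). Cycs was 1 of 11 members with a mean at or below the array median, together with Cox5b, Cox6a2, Cox6b2, Cox7a1, Cox7b, Cox7b2, Cox8b, Cox8c, Atp5h and Atp5c1-ps. Cycs, Cox5b, Cox7b and Atp5h serve the respiratory chain of most cells, so a low value of such a line may say little about the amount of its mRNA. For these dim lines, whose changes lay between -0.04 and 0.05, a missing call does not show that the gene was unchanged.

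In complex IV, 2 of 16 subunits passed as lower and none as higher, which is 12.5% of them against 3.24% of all genes. Both were among its 8 subunits above the array median, which is 25% of those against 5.14% of all genes above it. The median change of the 16 was -0.016, with 5 above and 11 below 0. At an unadjusted p under 0.05 there were 0 higher and 4 lower, or 25% of the 16 against 21.0% of all genes. For the 8 brighter subunits this share was 50%, against 27.7% of all genes above the array median. Cox6b1, which sits on the outer face of the enzyme towards cytochrome c, ran from 7.85 to 8.08 in controls (median 7.96) and from 7.61 to 7.84 in diabetic retinas (median 7.71). All diabetic retinas were below all controls, but diabetic 1 and control 4 were only narrowly apart. It fell by 0.25 ± 0.05 on the log2 scale, to 0.841 of the control level (95% interval of the change -0.35 to -0.15, adjusted p = 0.0199). It passed in each of the 12 runs that left out 1 array, with an adjusted p of at most 0.0488.

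Cox8a, a small subunit in the membrane part of the enzyme, ran from 10.22 to 10.61 in controls (median 10.33) and from 10.02 to 10.19 in diabetic retinas (median 10.14). The groups again did not overlap, and control 2 and control 3 were the highest. It fell by 0.25 ± 0.06, to 0.839 of the control level (95% interval -0.39 to -0.12, adjusted p = 0.0480). This call rested close to the threshold. It was lost without control 2, 3, 4 or 6 and without any of the 6 diabetic arrays (10 of 12 runs, adjusted p from 0.0528 to 0.0926, change from -0.27 to -0.21). It was also lost with robust variances (adjusted p = 0.0535) and with a block for the replicate number (adjusted p = 0.0605). With the mean of the lens markers as a covariate it was lost too, at a change of -0.26 (adjusted p = 0.0782).

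The other complex IV subunits did not pass. Cox7a2 differed by -0.20 ± 0.08 (adjusted p = 0.175) and Cox5a, on the matrix side, by -0.14 ± 0.06 (adjusted p = 0.215). Cox4i1, the common form of the largest nuclear-encoded subunit, ran from 8.87 to 9.13 in controls (median 8.96) and from 8.82 to 9.24 in diabetic retinas (median 8.98). The diabetic range enclosed the control range, and the change was 0.04 ± 0.07 (95% interval -0.11 to 0.19, adjusted p = 0.769). Cox4i2, its isoform known from lung and induced by low oxygen, ran from 6.61 to 6.97 in controls (median 6.80) and from 6.65 to 6.82 in diabetic retinas (median 6.73), a change of -0.06 ± 0.06 (adjusted p = 0.611). Both isoforms thus overlapped between the groups.

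Tissue isoforms were compared within each gene. Among the 6 ubiquitous forms (Cox4i1, Cox6a1, Cox6b1, Cox7a2, Cox7b and Cox8a), 5 had changes below 0 (median -0.11), against 51.9% of all genes. The 2 calls of the complex were among them, or 33.3% of the 6 against 3.24% of all genes. Of the 6, 5 lay above the array median, where 5.14% of all genes passed, and Cox7b (-0.0021) lay below it. The muscle and testis forms were all dim, so form and brightness cannot be told apart here. Cox6a1 differed by -0.03 ± 0.04 (adjusted p = 0.684). The 3 forms of heart and skeletal muscle were all below the array median, with changes of 0.01 ± 0.03 for Cox6a2, 0.03 ± 0.03 for Cox7a1 and -0.04 ± 0.03 for Cox8b (adjusted p of 0.848, 0.621 and 0.410). The 3 testis forms were also below the array median, with 0.0057 ± 0.03 for Cox6b2 (adjusted p = 0.941) and values no larger than 0.02 in size for Cox7b2 and Cox8c. Striated muscle markers, which would mark carryover of eye muscle, had list means from 5.52 to 5.61 in controls and from 5.51 to 5.60 in diabetic retinas. Ndufa4, named for complex I but known as a subunit of complex IV, differed by 0.01 ± 0.04 (adjusted p = 0.894). The remaining 5 subunits (Cox5b, Cox6c, Cox7b, Cox7b2 and Cox8c) had changes from -0.02 to 0.0060, with adjusted p of 0.471 or more.

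**Figure D2:**
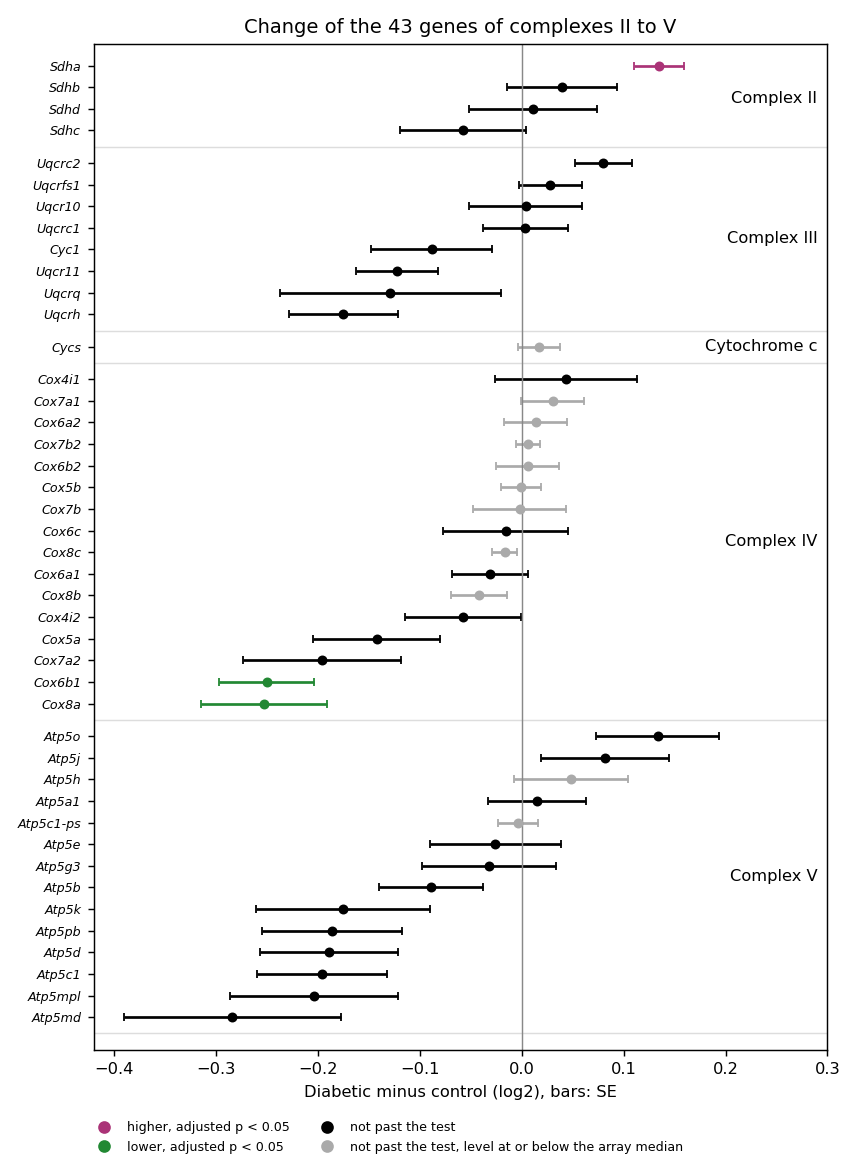
Change of each of the 43 genes, diabetic minus control on the log2 scale, with its SE, grouped by complex and ordered by size; pink and green mark genes past the test and grey those at or below the array median of 5.73. Sdha lies at 0.13 to the right of 0, Cox6b1 and Cox8a lie at -0.25, and of the 14 complex V genes 10 lie to the left of 0.

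None of the 14 genes of complex V passed the test, although 10 had changes below 0, against 51.9% of all genes (median -0.06, range -0.28 to 0.13). The 10 include the dim pseudogene Atp5c1-ps (-0.0041), without which the median was -0.090. At an unadjusted p under 0.05 there were 5 lower and 1 higher, against 11.3% lower and 9.76% higher among all genes. Among the 12 above the array median the share in both directions together was 50%, against 27.7% of all genes above it. In the catalytic head, the smallest p was that of Atp5c1, the rotating central shaft. It ran from 7.53 to 7.82 in controls (median 7.72) and from 7.30 to 7.65 in diabetic retinas (median 7.50), a change of -0.20 ± 0.06 (adjusted p = 0.109). Diabetic 1 and diabetic 2 lay among the controls, and the other 4 diabetic retinas below them.

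Atp5b, the catalytic beta subunit, ran from 12.04 to 12.26 in controls (median 12.20) and from 11.98 to 12.28 in diabetic retinas (median 12.09). Diabetic 1 was the highest and diabetic 2 the lowest of all 12 retinas, and the change was -0.09 ± 0.05 (95% interval -0.20 to 0.02, adjusted p = 0.346). Atp5d, a small subunit of the shaft, differed by -0.19 ± 0.07 (adjusted p = 0.138). Diabetic 1 and diabetic 3 lay within the controls for Atp5d, and the other 4 diabetic retinas below them.

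In the stator, which holds the head against the rotor, Atp5pb differed by -0.19 ± 0.07 (adjusted p = 0.150). Atp5o, the link between head and stator, differed by 0.13 ± 0.06 (adjusted p = 0.233) at a control mean of 5.75, near the array median, where a change is hard to size. In the membrane part, the small subunits gave -0.28 ± 0.11 for Atp5md (adjusted p = 0.156), -0.20 ± 0.08 for Atp5mpl (adjusted p = 0.182) and -0.18 ± 0.09 for Atp5k (adjusted p = 0.266). Atp5md had the largest difference of all 43 members, but also one of the largest errors, with diabetic 2 lowest at 7.05 and control 5 highest at 7.93. Of the genes of the c ring, which turns as protons pass, Atp5g3 was analysed here and differed by -0.03 ± 0.07 (adjusted p = 0.827). The remaining 5 genes of the complex had changes from -0.03 to 0.08, with adjusted p of 0.498 or more.

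Atpif1, now named Atp5if1, encodes the inhibitor that keeps the synthase from running backwards and consuming ATP. It ran from 9.67 to 9.86 in controls (median 9.73) and from 9.45 to 9.73 in diabetic retinas (median 9.67). Diabetic 2, diabetic 5 and diabetic 6 lay below all controls and the other 3 among them, with a change of -0.12 ± 0.05 (adjusted p = 0.199). Dmac2 (-0.03 ± 0.05) and Dmac2l (0.01 ± 0.08) did not pass either (adjusted p of 0.792 and 0.941).

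Brighter members varied between animals within both groups. For the 32 members above the array median, each value was set against the control mean of its gene. In control 4, control 5 and control 6, 25, 24 and 24 of the 32 lay below that mean, against 11, 8 and 6 in control 1, control 2 and control 3. The diabetic retinas had 14, 21, 22, 24, 15 and 21 below it. By this count diabetic 4 equalled control 5 and control 6, and the others fell between the higher and the lower controls. The median deviation per retina ran from -0.07 to 0.08 in controls and from -0.15 to 0.02 in diabetic retinas. Diabetic 2, 3, 4 and 6 (-0.104, -0.069, -0.150 and -0.102) lay below the lowest control (-0.065), and diabetic 1 and 5 (0.016 and 0.008) lay within the controls. Within complex V (12 bright members) the median deviation ran from -0.08 to 0.07 and from -0.20 to 0.02, with diabetic 2 and diabetic 4 lowest. Within complex IV (8 bright members) it ran from -0.09 to 0.12 and from -0.20 to -0.05, with diabetic 6 lowest. There too, diabetic 2, 3, 4 and 6 lay below the lowest control (-0.091), and diabetic 1 and 5 did not. Whether the groups differ in these medians was not tested.

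The ranges of controls and diabetic retinas overlapped over all 32 members and within both complexes. Over all 43 members 17 changes lay above 0 and 26 below (48.1% and 51.9% of all genes) and the median was -0.02 (from -0.034 without control 6 to -0.011 without control 3), against -0.0018 for all genes. Over the 32 brighter members 21 lay below 0 and the median was -0.06, while 6197 of the 12382 genes above the array median lay below 0.

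**Figure D3:**
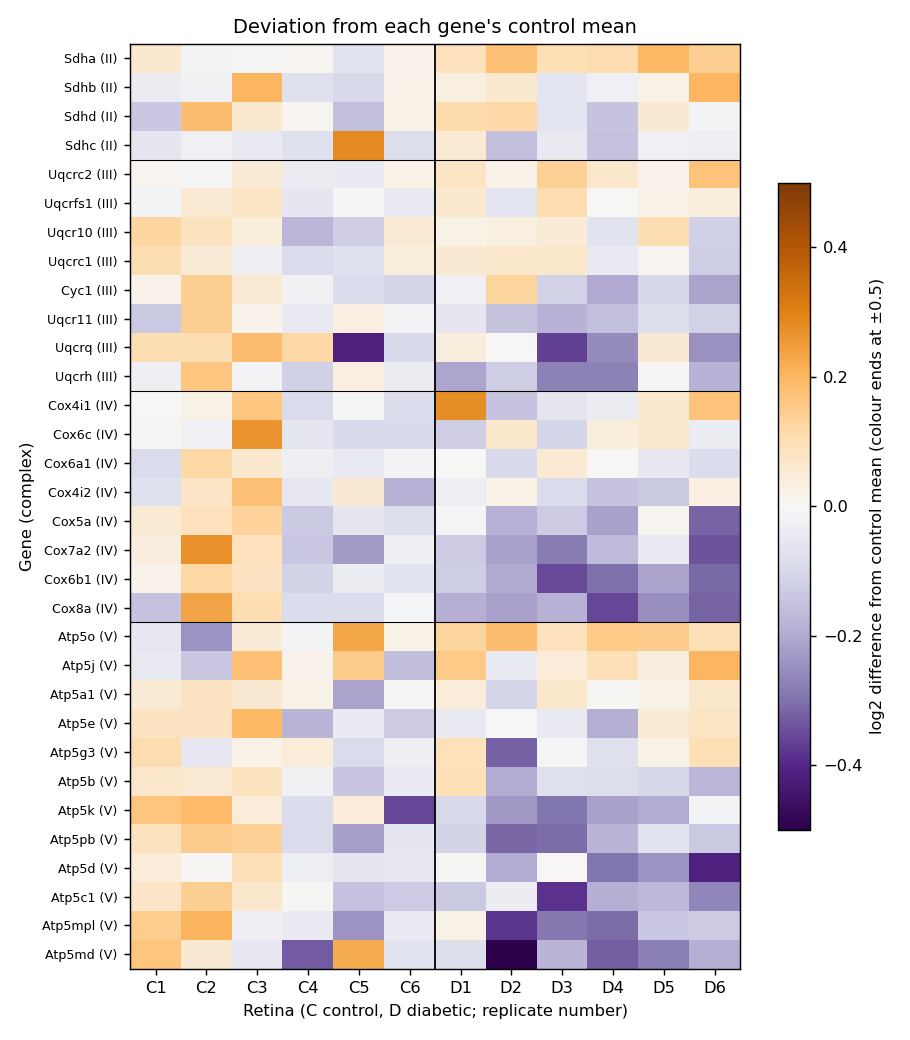
Deviation of each retina from the control mean of each gene (log2, colour) for the 32 members above the array median, in 6 control (C1 to C6) and 6 diabetic (D1 to D6) columns, ordered by complex. Purple cells are lower values, which make up 21 to 24 of the 32 genes in D2, D3, D4 and D6 and also 24 or 25 of the 32 in C4 to C6.

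The genes around the complexes went in both directions too. Of 38 assembly factors measured of 39 listed, 3 rose and 3 fell (median -0.0026), which is 15.8% against 3.24% of all genes and 5.14% of those above the array median. In complex III, Ttc19, which clears fragments of the Rieske protein after its insertion, rose by 0.27 ± 0.05 (adjusted p = 0.0184), with all diabetic retinas above all controls. In complex IV, Cox14, which steadies newly made mt-Co1, fell by 0.25 ± 0.04 (adjusted p = 0.0142), again without overlap of the groups. Ttc19 and Cox14 held in each of the 12 runs that left out 1 array.

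Pet100 fell by 0.19 ± 0.04 (adjusted p = 0.0344), whereas the copper chaperone Sco1 rose by 0.20 ± 0.04 (adjusted p = 0.0345) and Lrpprc, which stabilizes mitochondrial mRNAs, by 0.19 ± 0.04 (adjusted p = 0.0402). Tmem70, needed for the assembly of complex V, fell by 0.14 ± 0.03 (adjusted p = 0.0401). These 4 calls were fragile. Sco1 and Pet100 were each lost in 8 of the 12 runs, Lrpprc in 9 and Tmem70 in 10, with adjusted p of at most 0.0792 in those runs.

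Of 19 carriers and electron feeders measured of 20, none rose and 3 fell (15.8% against the same 3.24% and 5.14%, median 0.03). Etfb, a subunit of the flavoprotein that feeds electrons from fatty acid oxidation, fell by 0.21 ± 0.04 (adjusted p = 0.0255). The mitochondrial creatine kinase Ckmt1 fell by 0.25 ± 0.06 (adjusted p = 0.0348), and the phosphate carrier Slc25a3, which supplies complex V, by 0.13 ± 0.03 (adjusted p = 0.0466). Their calls were lost in 5, 8 and 9 of the 12 runs that left out 1 array, with adjusted p of at most 0.0914. Of 13 regulators of mitochondrial biogenesis, none passed (changes from -0.22 to 0.09), including the coactivator Ppargc1a (-0.09 ± 0.06, adjusted p = 0.400). With 0 higher and 2 lower at an unadjusted p under 0.05, the regulators had a share of 15.4%, against 21.0% of all genes. Among all genes above the array median, where 12 of the 13 lay, this share was 27.7%. Of 37 genes with the symbol of a complex I subunit, which include Ndufa4 and the pseudogene Ndufs5-ps, 1 rose and 3 fell (median -0.02). Of the 37 changes 13 lay above 0 and 24 at or below it. An unadjusted p under 0.05 was found for 43.2% (4 higher, 12 lower), against 21.0% of all genes and 27.7% of those above the array median. The calls are 10.8% against 6.98% of complexes II to V, 3.24% of all genes and 5.14% of those above the array median, where 33 of the 37 lay. Whether the shares differ was not tested. Among these 4 calls, that of Ndufa1 held in each of the 12 runs that left out 1 array, while Ndufv1 and Ndufv2 were each lost in 7 and Ndufa5 in 2. With a trend of the variance on the mean, Ndufv1, Ndufv2 and Ndufa5 lost their calls too.

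**Figure D4:**
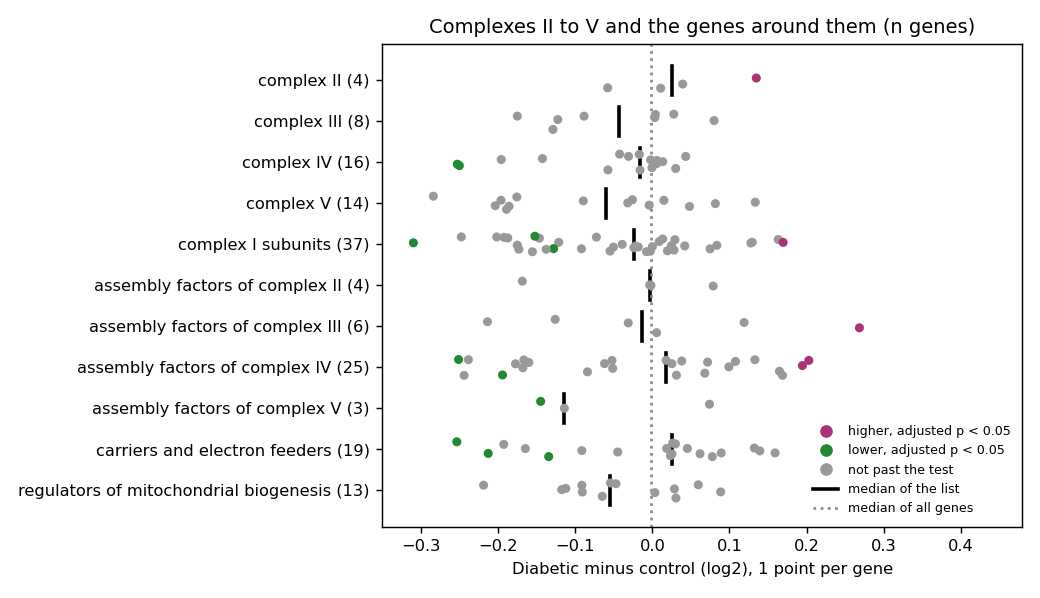
Changes of single genes (points, diabetic minus control, log2) in complexes II to V, complex I, and the lists of assembly factors, carriers and regulators, with list medians (black) and the median of all genes (dotted); numbers in brackets are genes measured. Points past the test lie on both sides of 0, and each list median lies between -0.11 and 0.03.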

How the data were processed

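Per the submitters' processing notes the authors used RMA, and the deposited values are on a log2 scale. Its version, the array model and the probe set definition are not given in the sources used here. The table has 24973 lines with an Entrez gene number each. The platform annotation named 24015 lines and RefSeq (GRCm38.p6) 559 more, while 399 unnamed lines were dropped. Another 4 lines repeated a symbol, of which the brighter line was kept, which left 24570 genes. The sorted log2 values were identical on all arrays, so a shift shared by most genes cannot be seen.

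Diabetic minus control was fitted with limma 3.58.1 (R 4.3.3; lmFit and eBayes, 6 arrays against 6, two-sided, no filter) and adjusted by Benjamini-Hochberg over all genes. No single list was tested. The fit was tested on simulated data. Errors are SEs from limma, and the number of arrays limits the precision. Members below the array median are reported as dim. Arrays were named by group and replicate number. Full ranges are given for members past the test, the member of smallest p in each complex and a set of defining subunits. The members and lists were chosen with earlier results of these data known. Alternatives covered lines per gene, dim genes, normalization, variance models, array weights, a replicate block, lens and rod covariates, the threshold, the definition of members and each array left out. Subunits with near-identical pseudogenes may share probes with them. Markers of 11 cell types were read as list means.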

Additional observations from a re-analysis of the deposited data

Results flagged for a closer look

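Among 124 groups of 6 arrays (members, neighbouring genes and medians of complexes), 7 (5.65%) had 1 array far from the other 5, judged by Dixon's ratio, the gap to the next array over the whole range. Chance passes about 1 in 20 such groups. Among control retinas they were Sdhc (ratio 0.835, control 5 high at 8.71), Cox5b (0.763, control 5 high at 5.38), Atp5a1 (0.753, control 5 low at 11.45) and Cox6c (0.705, control 3 high at 6.27). In diabetic retinas they were Cox7b (0.732, diabetic 3 high at 5.78), Atp5a1 (0.670, diabetic 2 low at 11.55) and Cox6a2 (0.642, diabetic 4 high at 5.75). None of these genes passed the test, and control 5 accounts for 3 of the 7.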

How the results depend on the processing

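The 3 member calls stayed 3 or became 2 under every alternative but the replicate block (1 call) and the threshold of 0.10 (4, with Uqcrh). Lower members numbered 1 in place of 2 with robust variances and with the lens covariate (Cox8a lost in each), and from 1 to 2 without single arrays. No pairing of the animals by replicate number was seen. Of 6 same-numbered pairs, 1 had a correlation of deviations over 0.1 (from -0.16 to 0.17), and 1 of 6 controls correlated best with its own number. With 6 pairs this cannot show that there was none. With the replicate block, 506 genes passed in place of 797, with 0 higher and 1 lower member: Cox6b1 kept its call, and Sdha (adjusted p = 0.0810) and Cox8a (adjusted p = 0.0605) lost it. Over all genes the count was 432 with the lens covariate, 1967 at a threshold of 0.10 and from 325 to 835 without single arrays. With only genes at or above the median level, medians moved to -0.058 for all members, -0.10 for complex IV and -0.13 for complex V. This setting left out the 11 dim members, whose changes lay between -0.04 and 0.05. Medians kept their sign in every run. Over all members and alternatives, 13 members changed sign in 50 of 892 runs, with main changes of at most 0.04 in size. Among the genes named, the change of Sdhd was -0.0094 with the lens covariate, and without single arrays it ran from -0.020 to 0.048. Cox4i1 then ran from -0.0033 to 0.081, Cox6a2 from -0.0079 to 0.027, Cox6b2 from -0.019 to 0.022 and Atp5g3 from -0.058 to 0.026. Signal over background of single genes is not given in the table, which limits what dim lines can show.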
